A study of Homo sapiens with 6 samples.

Results

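Hedgehog signalling is read here through 9 genes of its core: SHH, PTCH1, SMO, BOC, HHIP, GLI1, GLI2, GLI3 and SUFU. They were listed by name and found in the RefSeq gene table of GRCh38.p14 among 20037 protein-coding genes on chromosomes 1 to 22, X and Y. What was described for each gene was every peak that touched the gene body or 5 kb to either side of it. Peaks came from CUT&RUN, in which an antibody directs a nuclease to a chromatin protein and the released DNA is sequenced. All 6 libraries were prepared at day 30 from wild-type cells of H1, an established line of human embryonic stem cells. Of these, 4 were made with an antibody to MYT1L, a zinc-finger transcription factor of neurons, and 2 with IgG, a control antibody without a chromatin target. The title of the series names cortical interneurons grown from pluripotent cells, but the samples are labelled only as embryonic stem cells, and a peak list holds no expression by which to check either name.

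In this pathway the secreted ligand SHH binds the membrane protein PTCH1, which otherwise holds the signal transducer SMO inactive. Active SMO releases the GLI zinc-finger transcription factors from their inhibitor SUFU, and the balance of GLI activators and GLI repressors sets the transcription of target genes. In the embryonic forebrain SHH is known for specifying ventral identity, including the progenitors of the medial ganglionic eminence from which many cortical interneurons arise.

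The MYT1L libraries had 12310 to 30086 peaks on the chromosomes and the IgG libraries 976 and 998. Depth was not given and was estimated from the peaks as the genome-wide background in fragments per kb, which was 5.99, 2.25, 5.26 and 4.78 in MYT1L replicates 1 to 4 and 1.55 and 0.950 in IgG replicates 1 and 2. The peak names in the 4 MYT1L lists carry sample numbers 1 higher than the sample titles; the titles were followed. Nothing in the labels says that replicates were separate cultures, so p-values describe only the spread between these libraries.

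The 9 genes held 51 MYT1L peaks and no IgG peak. MYT1L replicate 1 had 18 peaks at them, replicate 2 had 4, replicate 3 had 7 and replicate 4 had 22. Every MYT1L library was thus above both controls, with 12.75 ± 8.62 peaks (SD, n = 4) against 0 in each IgG library (exact two-sided permutation test over 15 splits, p = 0.133, which is the floor for 4 libraries against 2). A peak was present at 7, 3, 4 and 9 of the 9 genes in MYT1L replicates 1 to 4. The corresponding shares of all protein-coding genes were 68.0%, 43.0%, 57.3% and 77.6%, so the counts of hedgehog genes lay on both sides of the background. These shares are not matched for length: the gene with 5 kb to either side had a median of 86.5 kb in the 9 genes and 34.1 kb in all. In the IgG libraries 1.61% and 2.90% of all protein-coding genes had a peak (4.16% in either), a background at which 0 of 9 is no result about these genes. None of the 9 genes had more peaks in every MYT1L library than in both IgG libraries, since none had a peak in all 4, whereas 30.6% of all protein-coding genes did.

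The controls were shallower than every MYT1L library. Thinned to the depth and threshold of IgG replicate 1, the MYT1L libraries were expected to keep 1.18, 2.31, 0.580 and 6.07 peaks at the hedgehog genes in replicates 1 to 4. At IgG replicate 2 the expected numbers were 0.544, 0.827, 0.295 and 2.88. The means over the 4 libraries, 2.53 and 1.14, were 4.49 and 2.49 when each MYT1L list kept its own threshold. For the libraries with an expected number near 1 or below, the 0 peaks of the controls therefore show no difference at this depth, and MYT1L replicate 4 left the widest margin.

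**Figure D1:**
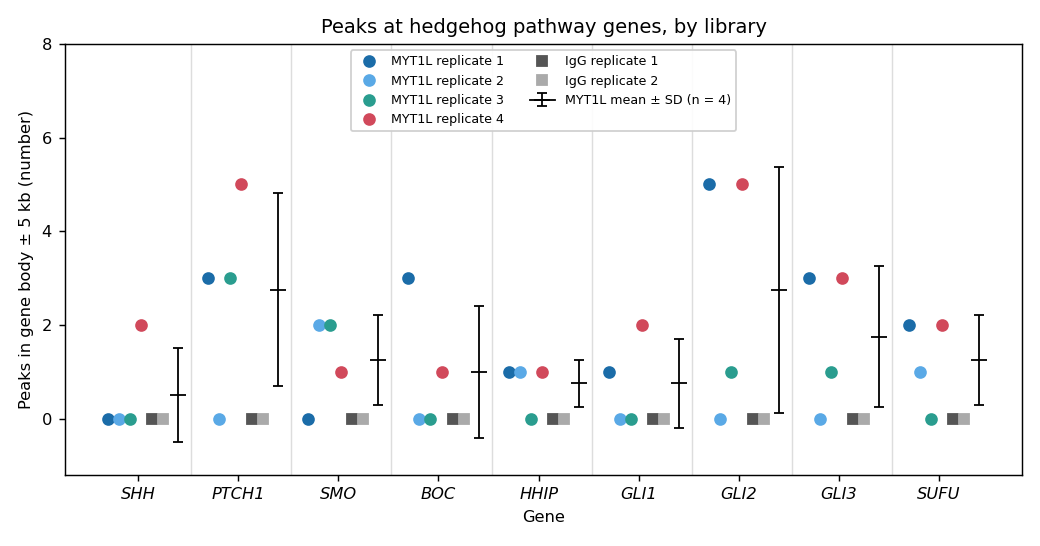
Number of peaks (vertical axis) in the gene body or within 5 kb of it for each hedgehog gene (horizontal axis), with circles for the 4 MYT1L libraries, squares for the 2 IgG libraries, and bars for the MYT1L mean ± SD. All IgG squares lie at 0, MYT1L replicate 4 has a peak at all 9 genes, and PTCH1 and GLI2 have the most peaks (11 each over the MYT1L libraries).

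Peaks of the MYT1L libraries that overlapped by at least 1 bp were joined into regions, and regions supported by 3 or 4 of the MYT1L libraries and free of IgG overlap are termed reproducible below. PTCH1 and SMO had such a region, 2 of 9 genes (22.2%), against 48.0% of all protein-coding genes. Long genes have more room for a region, and the hedgehog genes are long: their median window was 86.5 kb against 34.1 kb for all genes. By window length, the background share was 39.3% under 50 kb (SHH, SMO and GLI1, of which SMO had a region), 58.5% from 50 to 100 kb (PTCH1 and BOC, of which PTCH1 had one), 65.6% from 100 to 200 kb (HHIP and SUFU, neither) and 69.8% from 200 kb (GLI2 and GLI3, neither). The count of 2 rested on the number of libraries asked for. With at least 2 libraries it was 7 of 9, the exceptions being SHH and GLI1, against 65.3% of all genes. It was 0 with all 4, against 25.3%. Leaving out MYT1L replicate 2, or leaving out replicate 3, and asking for 2 of the other 3 also gave 7 of 9, with 63.3% and 59.9% of all genes. Without MYT1L replicate 4 it stayed at 2 of 9, against 49.3%.

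**Figure D2:**
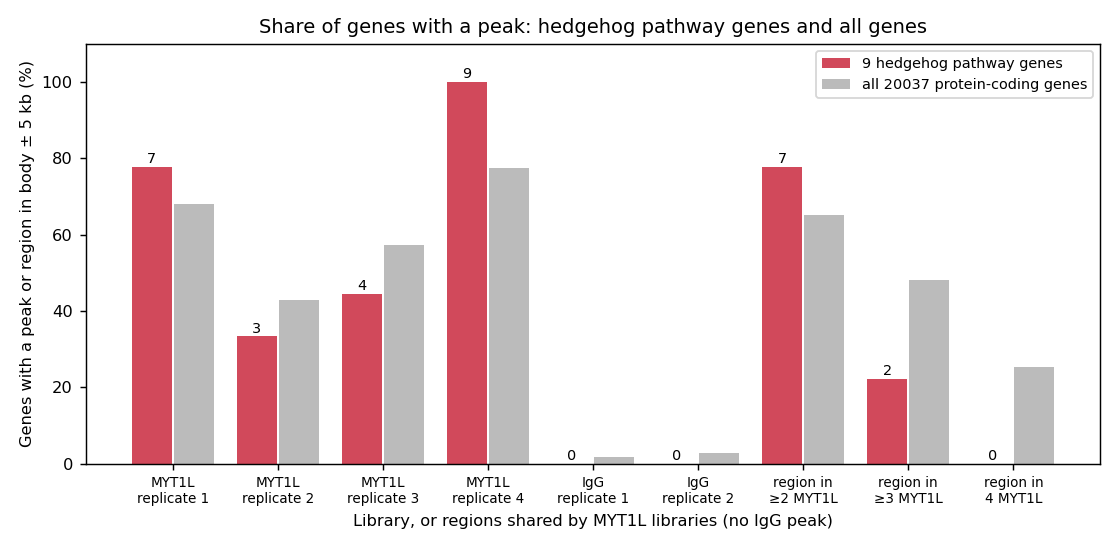
Percentage of genes (vertical axis) with a peak of each library, or with a region shared by at least 2, at least 3 or 4 MYT1L libraries and free of IgG peaks (horizontal axis), in the 9 hedgehog genes (red, number of genes above the bar) and in all 20037 protein-coding genes (grey). The hedgehog genes lie above the grey bars in MYT1L replicates 1 and 4 and below them in replicates 2 and 3, and 2 of 9 against 48.0% had a region in at least 3 libraries. The grey bars are not matched for gene length.

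The ligand gene SHH (chromosome 7, 155799980 to 155812463, minus strand) had 0, 0, 0 and 2 peaks in MYT1L replicates 1 to 4. Both peaks were therefore from replicate 4 alone. The peak from 155812065 to 155812371 lay inside the gene, 92 bp downstream of its start, with a fold of 2.92. Fold is the authors' own enrichment per peak over the local background at the summit. The other peak, from 155797082 to 155797290, lay beyond the 3′ end, with a fold of 3.65. Both were among the weaker peaks of their list, at the 9.38 and 9.69 percentile of −log10 q.

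PTCH1, the receptor of SHH and itself a well-known target gene of the pathway, held 2 of the 3 reproducible regions found at the 9 genes (chromosome 9, 95442980 to 95516971, minus strand). It had 3, 0, 3 and 5 peaks in MYT1L replicates 1 to 4, so replicate 2, the shallowest, was the library without a peak. These made 5 regions, of which 2 were shared by replicates 1, 3 and 4. The stronger region ran from 95515707 to 95516798, inside the gene and beginning 173 bp downstream of the outermost of its 5 listed starts. A peak of replicate 3 set that edge, while the peaks of replicates 1 and 4 reached only to 95516478 and 95516578. The fold of this region was 5.25 in replicate 1, 4.46 in replicate 3 (the higher of 2 peaks there) and 6.25 in replicate 4 (5.32 ± 0.90, SD, n = 3). The summit of replicate 4 there had an estimated 44 fragments over a background of 6.20, the highest pileup of the 51 peaks. The other region, from 95510839 to 95511340, lay 1.57 kb upstream of the second start, with folds of 4.45, 4.90 and 3.79 in replicates 1, 3 and 4 (4.38 ± 0.556, SD, n = 3). A region from 95508218 to 95509328, shared by replicates 1 and 4 with folds of 3.69 and 3.59, covered the second start with the peak of replicate 4, while the peak of replicate 1 lay downstream of it.

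The upstream sequences of the outermost and the second PTCH1 start are shown because the regions at this gene gather around them. They are the 250 bases before each start, from RefSeq (GRCh38.p14, minus strand), at chr9:95516972-95517221 and chr9:95509267-95509516. Capitals mark TGGGTGG, the core of the sequence bound by GLI factors, searched on both strands.

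PTCH1 outermost start: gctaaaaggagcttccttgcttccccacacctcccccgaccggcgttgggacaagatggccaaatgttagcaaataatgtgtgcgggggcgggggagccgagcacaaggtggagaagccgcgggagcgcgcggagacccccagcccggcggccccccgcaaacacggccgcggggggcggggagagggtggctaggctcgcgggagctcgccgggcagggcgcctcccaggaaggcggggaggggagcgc
PTCH1 second start: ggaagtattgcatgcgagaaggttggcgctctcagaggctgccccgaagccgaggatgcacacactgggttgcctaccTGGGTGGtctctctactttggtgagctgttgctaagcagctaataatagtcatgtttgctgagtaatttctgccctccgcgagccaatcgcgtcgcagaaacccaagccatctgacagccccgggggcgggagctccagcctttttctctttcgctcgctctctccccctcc

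The second sequence held 1 GLI core, 172 bases upstream of its start, and the first held none. TGGGTGG was present in 9.19% of all 35116 promoter sequences of 300 bases (250 before and 50 after the start). The nearest MYT1L peak, from replicate 4, ended 104 bp from the core, so no peak covered it. AAGTTT, the core sequence of the MYT1 family, was not in either PTCH1 sequence, and it was present on either strand in 12.8% of all promoter sequences.

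SMO, the membrane protein that passes the signal into the cell, had the third reproducible region (chromosome 7, 129188633 to 129213545, plus strand). Its peak numbers were 0, 2, 2 and 1 in MYT1L replicates 1 to 4, and replicate 1 was the library without a peak. The region from 129188405 to 129189701 covered the gene start and had folds of 6.20, 4.67 and 6.51 in replicates 2, 3 and 4 (5.79 ± 0.985, SD, n = 3). The peaks of replicates 2 and 3 lay downstream of the start, and the wider peak of replicate 4 reached across it. The 250 bases before the start are shown because the region shared by 3 libraries reached into them (RefSeq, GRCh38.p14, plus strand, chr7:129188383-129188632).

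SMO: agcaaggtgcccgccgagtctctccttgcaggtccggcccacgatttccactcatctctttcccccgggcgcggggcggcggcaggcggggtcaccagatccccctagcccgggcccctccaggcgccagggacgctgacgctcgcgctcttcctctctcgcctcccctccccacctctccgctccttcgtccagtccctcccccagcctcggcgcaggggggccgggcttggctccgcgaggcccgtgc

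Neither AAGTTT nor TGGGTGG was in this sequence, which is rich in G and C (72.0% over the 300 bases).

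BOC, a cell-surface co-receptor for SHH, had 3, 0, 0 and 1 peaks in MYT1L replicates 1 to 4 (chromosome 3, 113210926 to 113287459, plus strand). A region from 113212158 to 113212450 was shared by replicates 1 and 4, with folds of 3.72 and 4.77, and began 42 bp downstream of a listed start. It also lay inside or within 1 kb of the protein-coding locus LOC124909486, so the peaks cannot be assigned to BOC alone. A MYT1 family core, in capitals, stood 83 bases before that start at chr3:113212021-113212050 (RefSeq, GRCh38.p14, plus strand), 120 bp from the nearest MYT1L peak.

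BOC: gtcacgtcgctgAAGTTTgttttcttttca

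HHIP, a membrane protein that binds the ligand and limits its range, had 1, 1, 0 and 1 peaks (chromosome 4, 144646156 to 144745271, plus strand). The region from 144645789 to 144646409 covered the gene start in replicates 1 and 4, with folds of 4.56 and 6.54, and also overlapped the end of the long non-coding RNA gene HHIP-AS1 (144642916 to 144646019). The peak of replicate 2, from 144645261 to 144645597, stood apart, 559 bp upstream of the start and inside HHIP-AS1, with a fold of 5.06. A peak was thus found within 1 kb of the HHIP start in 3 libraries without a region shared by 3.

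**Figure D3:**
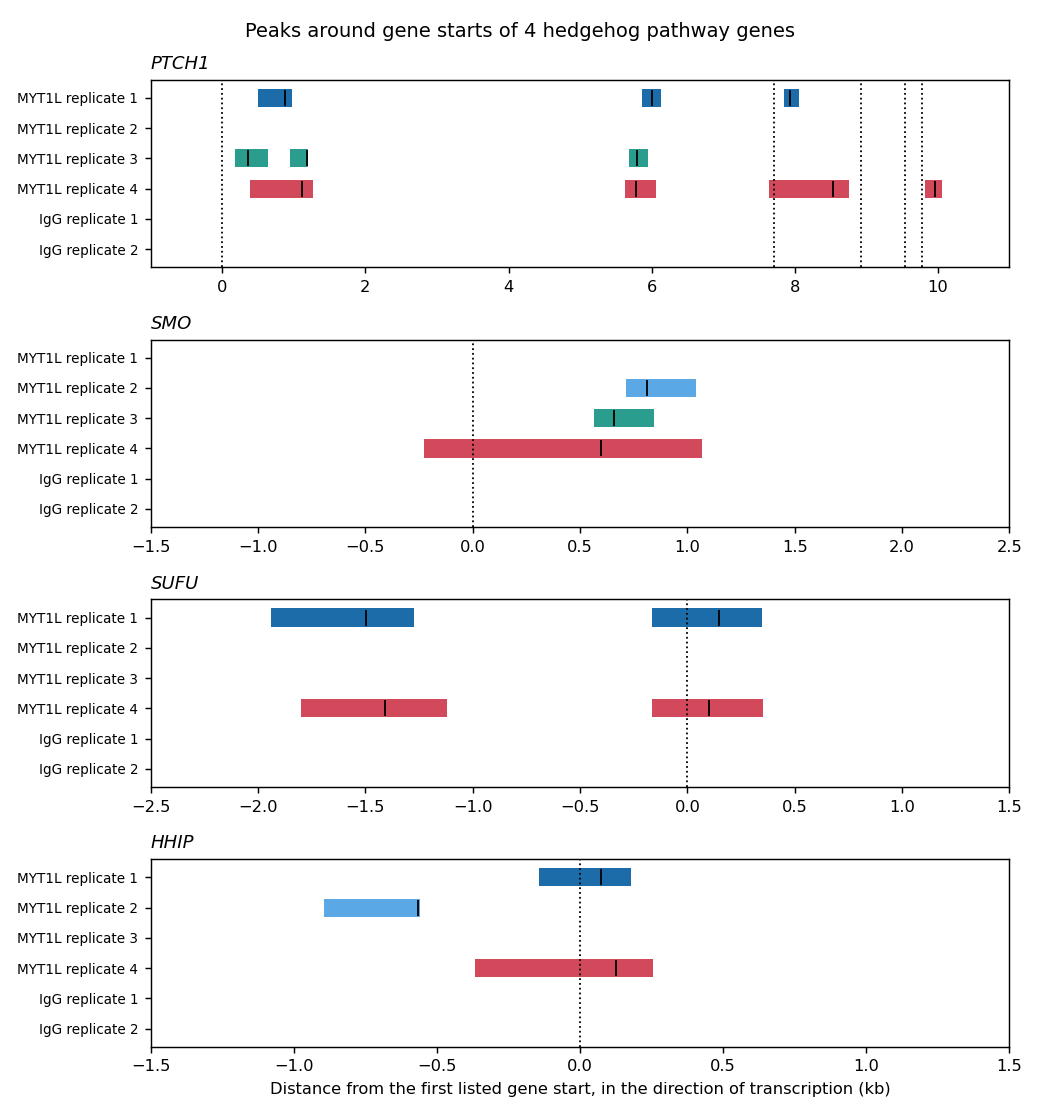
Peaks of each library (rows) by distance in kb from the first listed gene start, in the direction of transcription (horizontal axis), at PTCH1, SMO, SUFU and HHIP. Boxes are peaks, black ticks their summits, and dotted lines listed starts. The PTCH1 region that begins 173 bp from the first start, with a peak of replicate 3, and the SMO region over the start are each made of peaks from 3 MYT1L libraries. Both IgG rows are empty.

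Of the transcription factor genes, GLI2, the main GLI activator, had 5, 0, 1 and 5 peaks in MYT1L replicates 1 to 4 (chromosome 2, 120735868 to 120992653, plus strand). They made 10 regions, 9 of them in a single library, and 8 lay over 50 kb from a listed start. The one shared region, from 120741657 to 120742049, was 5.79 kb downstream of the start and came from replicates 1 and 4 (folds 4.56 and 4.01). The peak of replicate 4 from 120735900 to 120736127 lay inside the long non-coding RNA gene LOC124907881 (120730341 to 120737661). It began 32 bp downstream of the GLI2 start, with a fold of 5.21. The 250 bases before that start are shown because they hold a GLI core, in capitals, 164 bases before the start and 190 bp from the nearest MYT1L peak (RefSeq, GRCh38.p14, plus strand, chr2:120735618-120735867).

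GLI2: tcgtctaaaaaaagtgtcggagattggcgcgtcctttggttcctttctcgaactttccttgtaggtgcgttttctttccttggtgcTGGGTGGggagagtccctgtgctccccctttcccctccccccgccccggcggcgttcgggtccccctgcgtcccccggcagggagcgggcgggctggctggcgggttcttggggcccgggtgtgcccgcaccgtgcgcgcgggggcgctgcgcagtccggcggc

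GLI3, the main GLI repressor, had 3, 0, 1 and 3 peaks (chromosome 7, 41960949 to 42264268). Of its 6 regions, the one from 42236461 to 42237557 was shared by replicates 1 and 4, with folds of 5.15 and 7.24, and lay inside the gene. The fold of 7.24 in replicate 4 was the highest of the 51 peaks. GLI1, an activator that is also a target gene of the pathway, had 1, 0, 0 and 2 peaks, each in a region of a single library (chromosome 12, 57459785 to 57472268). Of these, the peak from 57459304 to 57459536 lay 249 bp outside a gene end (fold 4.70, replicate 4). That peak and the peak of replicate 1 from 57460783 to 57460994 lay inside the long non-coding RNA gene LOC124902947 (57457442 to 57462972). The peak from 57475479 to 57476093 lay inside or within 1 kb of the neighbouring gene ARHGAP9 (fold 5.32, replicate 4). The promoter table used here lists no start for GLI1 and GLI3, so their peaks were placed only against the ends of the gene and their strand was not used.

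SUFU, which holds GLI proteins in the cytoplasm, had 2, 1, 0 and 2 peaks in MYT1L replicates 1 to 4 (chromosome 10, 102502819 to 102633535, plus strand). Replicates 1 and 4 shared both of its 2-library regions. The region from 102503807 to 102504326 covered the listed start, with folds of 4.48 and 6.94, and the peak of replicate 4 there had the highest −log10 q of all 51 peaks (19.8, the 83.2 percentile of its list). The region from 102502032 to 102502850 overlapped the end of SUFU, with folds of 4.83 and 5.10. It also lay inside or within 1 kb of the adjacent gene ACTR1A, so the genes cannot be told apart there. The 250 bases before the start are shown because both peaks extend into them and they hold a MYT1 family core, in capitals, here on the opposite strand as AAACTT (RefSeq, GRCh38.p14, plus strand, chr10:102503722-102503971).

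SUFU: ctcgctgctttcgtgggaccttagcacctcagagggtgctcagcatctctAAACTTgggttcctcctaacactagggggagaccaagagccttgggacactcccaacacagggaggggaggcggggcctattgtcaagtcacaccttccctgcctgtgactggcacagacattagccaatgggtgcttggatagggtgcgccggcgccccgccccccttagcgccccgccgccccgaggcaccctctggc

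The nearer edge of the peaks stood 30 bp from this core, which began 200 bases before the start. Of the 13 promoter sequences listed for 7 of the 9 genes, 2 held AAGTTT and 2 held TGGGTGG, and none of these 4 matches was covered by a MYT1L peak. The median share of G and C over the 13 was 61%, between the 58.7% of all promoters and the 68.3% of the 9449 promoters that overlapped a reproducible region.

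Listed starts were available for 7 of the 9 genes. Of the 28 regions at these 7 genes, 10 lay within 1 kb of a start. In 6 of these 10 the region was shared by at least 2 libraries, and in 3 of the 18 regions farther away. Over the regions of all protein-coding genes with a listed start, the corresponding shares were 73.8% of 11996 within 1 kb and 26.6% of 13525 farther away, so sharing was more frequent near starts in both sets. For counts over all genes, either gene end stood in where no start is listed, as at GLI1 and GLI3. At least 3 libraries shared a region within 1 kb of a start so defined at PTCH1 and SMO, 2 of 9 genes, against 40.0% of all protein-coding genes. With at least 2 libraries these genes were PTCH1, SMO, BOC, HHIP and SUFU, 5 of 9 against 54.5%. Over all 37 regions at the 9 genes, 27 came from a single library (73.0%, against 58.1% of all 49028 regions) and 3 from 3 libraries or more (8.11% against 25.1%). All 7 regions in exactly 2 libraries came from replicates 1 and 4, the 2 longest lists, which also gave 47.1% of the 8267 such regions genome-wide.

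The same libraries supplied most peaks: 40 of the 51 (78.4%) came from replicates 1 and 4, which held 65.0% of all MYT1L peaks. Per 1000 peaks of a list, 0.645, 0.325, 0.369 and 0.731 lay at the 9 genes in replicates 1 to 4. Thinned to the depth and threshold of replicate 2, which had 4 peaks at these genes, replicate 1 was expected to keep 4.10, replicate 3 to keep 1.88 and replicate 4 to keep 11.6. Depth was matched here only on the background estimated from the peaks, and its part in the differences between libraries was not otherwise tested. Per 100 kb of window, the 9 genes had 1.67, 0.370, 0.648 and 2.04 peaks in replicates 1 to 4, and all protein-coding genes 1.5, 0.738, 1.08 and 1.80. Tested gene by gene against IgG, the lowest p was 0.4 (exact permutation test, two-sided), and with 4 against 2 libraries this test cannot pass 0.05 for any gene.

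Peaks at the hedgehog genes were mostly of modest strength within their lists. Their fold ranged from 2.76 to 7.24 with a median of 4.56, and the estimated pileup from 7 to 44 fragments with a median of 13. By −log10 q, 36 of the 51 lay below the median of their own list. The median percentile was 35.9, 44.6, 23 and 39.8 in replicates 1 to 4.

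**Figure D4:**
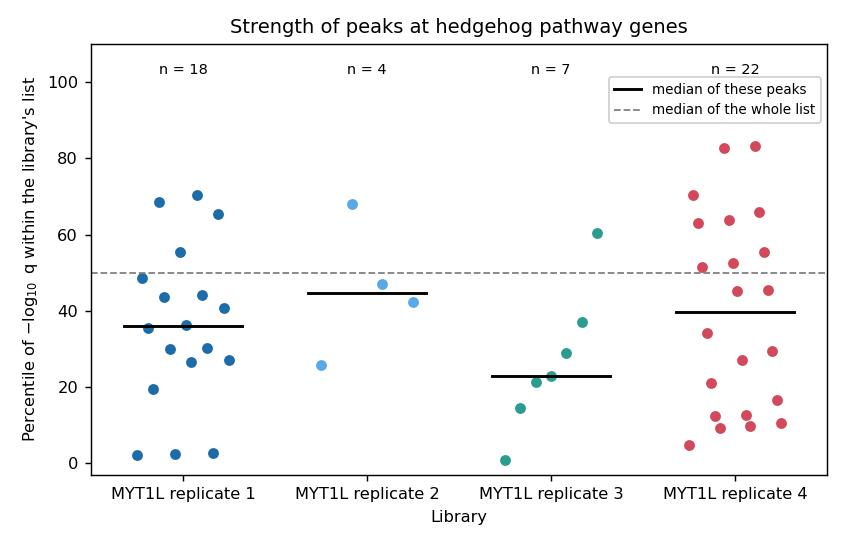
Percentile of −log10 q within the library's own list (vertical axis) for each peak at the 9 hedgehog genes, by MYT1L library (horizontal axis), with the median of these peaks (black line) and of the whole list (dashed line at 50). The medians of 35.9, 44.6, 23 and 39.8 lie under the dashed line in all 4 libraries.

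PTCH1 and GLI2 had the most peaks, 11 each, and the genes with the most similar peak numbers over the 6 libraries were looked up as a description. For PTCH1 these were CTDP1, LOC107984156 and SOX11, and for GLI2 they were TTLL11, ADAM12 and COPZ2. Each differed from its partner by 1 peak in 1 library, a Euclidean distance of 1, and no gene had the same 6 numbers.

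The other genes of the pathway were represented by 21 genes chosen for their role. A reproducible region was present at 14 of them (66.7%, against 48.0% of all protein-coding genes), with a median window of 89.3 kb, close to that of the 9 core genes. The median window of all protein-coding genes was shorter, 34.1 kb, so 48.0% is not matched for length. By window length the background share was 39.3% under 50 kb, 58.5% from 50 to 100 kb, 65.6% from 100 to 200 kb and 69.8% from 200 kb. In 13 of the 21 a reproducible region lay within 1 kb of a gene start or, for genes without a listed start, of a gene end, against 40.0% of all protein-coding genes. For reception of the ligand it was 3 of 3: CDON, the paralog of BOC, the co-receptor GAS1, and the endocytic receptor LRP2, which had 3 such regions. Kinases and ubiquitin ligase parts had 6 of 7, cilium and signal relay genes 3 of 6, and genes for ligands and their release 2 of 5, with IHH the gene without a peak in any library.

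Regions in all 4 MYT1L libraries without an IgG peak were found at 4 of the 21, against 0 of the 9 core genes and 25.3% of all genes. PRKACB, a catalytic subunit of protein kinase A, which primes GLI proteins for processing, had a fold of 9.29 ± 2.47 (SD, n = 4) at chromosome 1, 84077486 to 84078667. The kinase gene GSK3B had 7.53 ± 1.06 (chromosome 3, 120093897 to 120095652), DISP1, needed for release of the ligand, 7.06 ± 2.17 (chromosome 1, 222814790 to 222815479), and CDON 6.44 ± 1.2 (chromosome 11, 126062101 to 126063522; SD, n = 4 each). Each of these 4 regions covered a gene start. Of the paralogs CDON and BOC, the CDON region had a peak in all 4 libraries and the BOC region in 2. CUL3, a scaffold of ubiquitin ligases, had a region in 3 MYT1L libraries that an IgG peak overlapped, and it was not counted. Whether the 21 genes differ from the 9 was not tested.

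**Figure D5:**
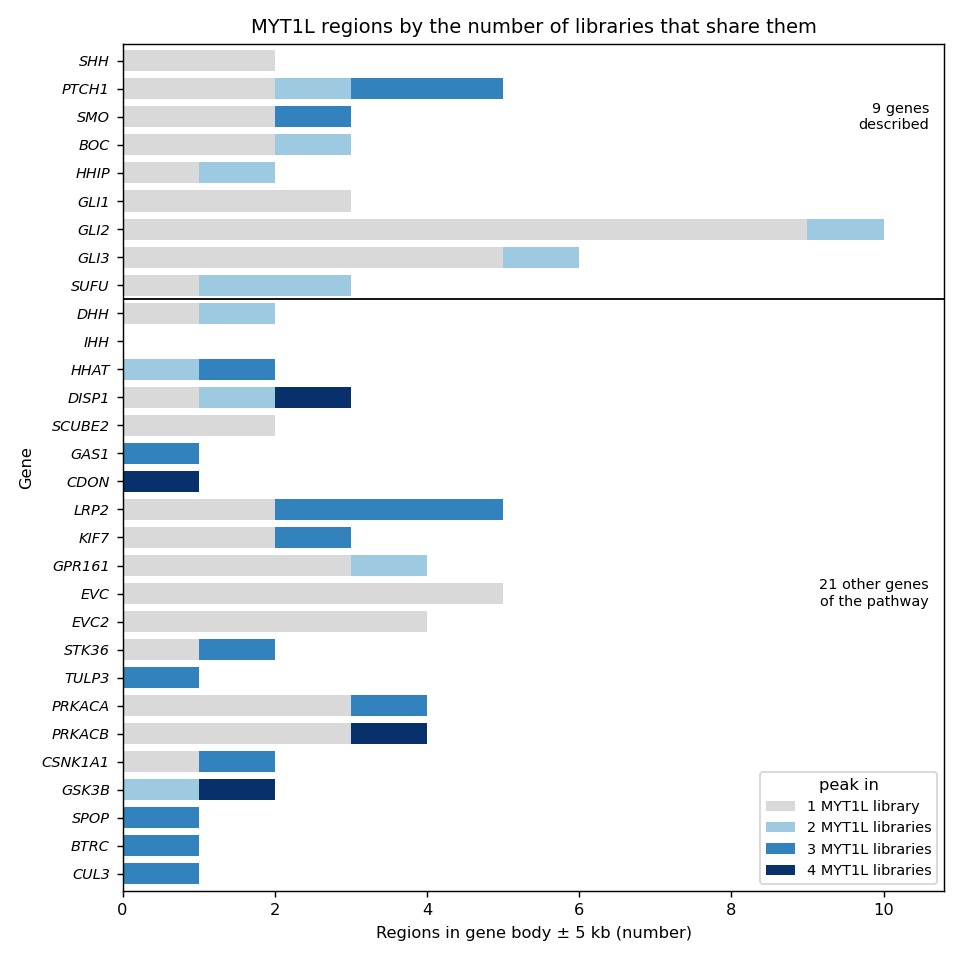
Number of regions (horizontal axis) in the gene body or within 5 kb of each hedgehog pathway gene (vertical axis), shaded by how many MYT1L libraries share the region; regions with an IgG peak are included, which concerns CUL3 alone. The 9 core genes, above the line, hold 3 regions shared by 3 libraries and none shared by 4, while DISP1, CDON, PRKACB and GSK3B below it each hold a region shared by 4.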

How the data were processed

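Each of the 6 CUT&RUN libraries had 1 deposited peak list without a header. Per the submitters' processing notes, MACS2 and hg38 were used; versions, aligner, threshold, control library and pooling are not given in the sources used here. Each deposited peak carries a fold enrichment (a ratio), a −log10 p, a −log10 q and a score (10 times the −log10 q, truncated). Coordinates are counted from 1. Groups and replicate numbers came from the sample titles.

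Peaks on chromosomes 1 to 22, X and Y were used, and overlap meant at least 1 bp. The 49028 joined regions had 0 differences from those made by bedtools 2.31.1. Gene starts came from the RefSeq promoter table, which lists one for 15843 of 20037 protein-coding genes; for the rest both gene ends were used. Strand and exons are otherwise not given, so introns and exons were not assigned. Pileups and backgrounds were recovered from the formulas of MACS (whole pileups within 0.0002 of the −log10 p for at least 99.97% of peaks with a −log10 p up to 200) and thinned binomially. Recovery and thinning were checked on simulated pileups that follow the same formulas, which tests the arithmetic and not the estimate for real libraries. Thinning to MYT1L replicate 2 was added after the values were seen.

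The 9 genes, the other lists and the tests were chosen with earlier results of these data known. All 9 genes are named. Other pathway genes are named where a region in all 4 MYT1L libraries lacked an IgG peak; GAS1, LRP2, IHH and CUL3 were named after their values were seen, and 1 gene of that list is not reported here. Tests used Python 3.11.15 with scipy 1.17.1.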

Additional observations from a re-analysis of the deposited data

Results flagged for a closer look

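Of 11 sets of values over the 4 MYT1L libraries, 2 had a library standing apart from the rest by Dixon's criterion, which chance meets in about 1 in 20 groups and which small whole numbers with ties meet easily. At SHH, MYT1L replicate 4 had 2 peaks and the other libraries 0. At HHIP, MYT1L replicate 3 had 0 peaks and the other libraries 1 each.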

How the results depend on the processing

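All alternatives were planned. Over 12 alternatives the MYT1L mean minus the IgG mean was 3.75 to 15.7 peaks at the 9 genes and 2.75 to 6.67 genes with a peak. The direction could hardly differ against controls at 0, none of these alternatives matches depth, and the exact permutation test cannot pass 0.05, so they say nothing about stability. The number of genes with a reproducible region, 2, became 1 at a −log10 q threshold of 5, 7 with at least 2 libraries and 0 with all 4, and 2 to 7 when 1 library was left out, the 7 arising without MYT1L replicate 2 or 3. The number of regions, 3, was 1, 10 and 0 in the same order and 3 to 10 when 1 library was left out. At gene starts the number, 2, became 0 at that threshold, 1 with the 12000 strongest peaks per list, 5 with at least 2 libraries, 0 with all 4, and 2 to 5 when 1 library was left out. Each of these settings changes by construction how many peaks or libraries enter. The share of all protein-coding genes with a reproducible region moved as well, from 48.0% to 30.6% at a −log10 q threshold of 5. It was 32.8% with the 12000 strongest peaks, 65.3% with at least 2 libraries and 25.3% with all 4. When 1 library was left out it was 48.7% to 63.3%. At gene starts that share was counted only in the main setting, 40.0%, and with at least 2 libraries, 54.5%. The 14 other pathway genes became 10 at a −log10 q threshold of 5, 9 with the 12000 strongest peaks and 4 with all 4 libraries. They became 16 with at least 2 libraries, and 13 to 16 when 1 library was left out. With the threshold of the MYT1L list itself, the mean number of peaks expected at the depth of IgG replicate 1 was 4.49 in place of 2.53, and at that of IgG replicate 2 it was 2.49 in place of 1.14.

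MYT1L and IgG share replicate numbers 1 and 2 but no stated source. Paired by number as a replicate block, the difference was 11 peaks and 5 genes (exact test over sign changes, p = 0.5, the smallest it allows). Deviations of same-numbered libraries over genes correlated at 0.0104 (number 1) and -0.0104 (number 2). MYT1L replicate 2 correlated with IgG replicate 1 at 0.0104 as well. With 2 IgG libraries their deviations mirror each other by construction, so these values cannot show whether the numbers pair libraries.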

Other observations

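The 7 hedgehog genes without a reproducible region differed in how far the nearest one lay. For SUFU it was 51.7 kb from the gene, within 1 kb of C10orf95, for GLI1 35.7 kb from it, near MARS1, and for HHIP 64.8 kb, away from protein-coding genes. For SHH it was 155 kb away, near RBM33, and for BOC 171 kb, near SPICE1. GLI2 and GLI3 were farthest, at 482 kb (a region near RALB) and 647 kb (near C7orf25). The region nearest to GLI3, on chromosome 7 from 42911512 to 42912372, had a peak in all 4 MYT1L libraries and a fold of 9.23 ± 1.64 (SD, n = 4). These distances are given as values, and whether any of these regions acts on a hedgehog gene was not tested.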
